A study of Capra hircus with 20 samples.

Results

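Enkephalin and nociceptin precursor genes and the opioid receptor genes were followed in the hypothalamus of growing goats. The genes were PENK, PNOC, OPRM1, OPRK1, OPRD1 and OPRL1, which are 6 of the 21071 genes with deposited values. They were found by their symbols, matched through the NCBI gene number to the goat annotation of the ARS1.2 build, and each matched 1 entry. PDYN, the prodynorphin gene, was not among them and appears below only for comparison. The samples were hypothalamus of 20 female Jining grey goats, a breed with early puberty and breeding in all seasons. The labels name no treatment or genotype, and the goats were kept under the same feeding. They differed by age, which was 1 day (D1), 60 days (M2), 120 days (M4) or 180 days (M6), with 5 goats and 5 strand-specific rRNA-depleted libraries per stage. Each library came from the hypothalamic tissue of 1 goat, so all cell types of that tissue were measured together.

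Opioid peptides are cut from large precursor proteins inside neurons and act on receptors that couple to inhibitory G proteins, which lower cyclic AMP, open potassium channels and close calcium channels. In the hypothalamus they are known for restraint of gonadotropin-releasing hormone secretion, and for roles in feeding, stress and vasopressin release. PENK encodes proenkephalin, the source of the enkephalins, which bind mainly the delta receptor (OPRD1) and the mu receptor (OPRM1). OPRK1 encodes the kappa receptor, whose ligands are the dynorphins made from PDYN. PNOC encodes prepronociceptin and OPRL1 encodes the nociceptin receptor, which binds the classic opioid peptides poorly.

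On the ARS1.2 build PENK lies on chromosome 14 from 58525917 to 58530558 and OPRK1 on the same chromosome from 60304541 to 60335239, with 1773982 bp between them. PNOC lies on chromosome 8 from 10247100 to 10276552 and OPRM1 on chromosome 9 from 78093780 to 78151669. OPRD1 lies on chromosome 2 from 11286878 to 11329779 and OPRL1 on chromosome 13 from 53099266 to 53108772. All 6 are annotated as protein-coding genes, and each value below covers a whole gene and not a single exon or transcript.

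Levels are given in FPKM, a measure of fragments corrected for transcript length and library size, so that genes of different length can be set side by side. The reads behind each value are unknown, so the spread between goats carries the precision. Before the members, the tissue label was examined with marker genes. Among 4 transcription factor genes of the hypothalamus (SIM1, OTP, NKX2-1 and FEZF1), at least 1 reached 1 FPKM in 11 libraries and all were under 1 FPKM in 9. The summed FPKM of 16 hypothalamic markers ran from 2.27 to 923, so the amount of hypothalamic signal varied widely between libraries. The summed FPKM of 8 striatal markers (DRD1, DRD2, ADORA2A, PPP1R1B, RGS9, PDE10A, TAC1 and SYNPR) was between 429 and 1575 in D1 replicate 4, M2 replicate 4 and M6 replicate 2, against 23.2 to 197 in the other 17 libraries. M4 replicate 2 had the highest sum of 5 thalamic markers, 198 against 19.8 to 111 elsewhere, and M4 replicate 1 had the highest cortical sum, 131. M6 replicate 3 had the lowest sum of 5 neuronal markers, 66.9 FPKM against a median of 765, and M2 replicate 1 the next lowest, 160. The pituitary markers summed to at most 2.86 FPKM. M6 replicate 3 and M2 replicate 1 were also among the 3 libraries with the lowest mapping rates, with M2 replicate 3. Values without such libraries are given beside the results that moved most.

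PENK had the highest mean and the widest range of the 6 genes. At D1 its level was 23.3, 4.14, 3.36, 202 and 3.15 FPKM in replicates 1 to 5. At M2 it was 7.50, 2.57, 1.16, 50.5 and 13.7 FPKM. At M4 it was 14.02, 0.176, 0.935, 0.373 and 1.44 FPKM, so that 4 of the 5 M4 goats lay below every D1 goat. At M6 it was 2.12, 66.5, 4.75, 34.8 and 6.52 FPKM. The ranges of all stages overlapped, and that of M4 overlapped those of D1 and M6 only through M4 replicate 1. Over the 20 libraries the mean was 22.1 FPKM and the median 4.45 FPKM, and D1 replicate 4 alone held 45.6% of the summed level. The median of 5 goats was 4.14 FPKM at D1 and 7.50 at M2, then 0.935 at M4 and 6.52 at M6. M4 was also the stage with the lowest median sum of hypothalamic markers, 4.135 FPKM. In M4 replicates 1 to 5 that sum was 4.135, 23.8, 2.27, 495 and 3.60 FPKM. M4 replicates 2 and 4, which had the lowest PENK, thus had the highest hypothalamic sums of their stage. The part of the hypothalamic markers in the level of PENK was not tested. The 3 libraries with the highest PENK, from 50.5 to 202 FPKM, were the 3 with the highest striatal sum. In the other 17 libraries PENK ran from 0.176 to 34.8 FPKM, with a median of 3.36 FPKM. Enkephalin is made in abundance by striatal neurons, and the part of these markers in the level of PENK was not tested. M6 replicate 4, with 34.8 FPKM of PENK, had a striatal sum of 67.9 FPKM, against a median of 46.6 FPKM over all libraries. M4 replicate 2, with the lowest PENK, had a striatal sum of 135 FPKM.

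PNOC was lower and more even. Its level at D1 was 3.64, 1.99, 5.98, 0.631 and 0.441 FPKM. At M2 it was 0.875, 1.32, 1.49, 3.19 and 1.77 FPKM. All 5 M2 goats lay inside the D1 range. At M4 it was 1.17, 19.3, 1.11, 0.785 and 2.32 FPKM, with M4 replicate 2 far above the others. At M6 it was 3.07, 1.25, 0, 2.79 and 3.08 FPKM. M6 replicate 3, where PNOC is listed at 0, is the library with the lowest neuronal sum. The library with the highest PNOC, M4 replicate 2, had the highest thalamic sum, the highest OPRM1 and the lowest PENK of the 20 libraries. The part of the neuronal and thalamic markers in these values was not tested.

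The balance of the 2 precursor genes was read within each library, where scaling has no effect beyond the pseudocount of 0.1 FPKM. PENK was above PNOC in 13 of 20 libraries. This held in 4 of 5 goats at D1, at M2 and at M6, and in 1 of 5 at M4. The log2 ratio of PENK to PNOC averaged 2.71 at D1 (SD 3.33, n = 5 at each stage), 2.08 at M2 (SD 1.74), -0.89 at M4 (SD 3.43) and 3.07 at M6 (SD 2.74). The widest difference was that of M6 vs. M4, 3.96 on the log2 scale, with a two-sided exact permutation p of 0.0635. After adjustment over the 6 pairs of stages the p from this exact test was 0.254, and no pair of stages had an adjusted p under 0.05. Without M4 replicate 2 the difference was 2.65, and without M6 replicate 3 it was 3.33.

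**Figure D1:**
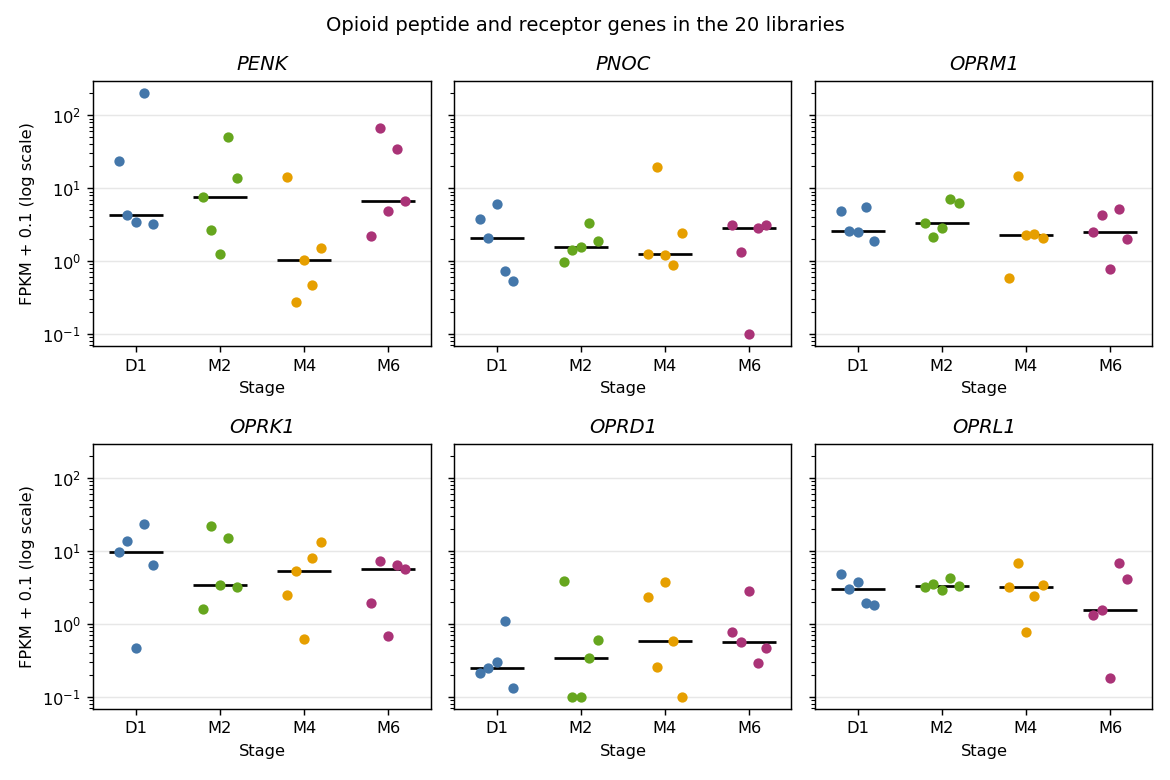
FPKM plus 0.1 on a log scale for the 6 genes at D1, M2, M4 and M6, where each point is 1 goat and each line the median of 5 goats. PENK spans 0.176 to 202 FPKM and has its lowest stage median at M4 (0.935 FPKM), with M4 replicate 1 at 14.02 FPKM. PNOC and OPRM1 each have a high point in M4 replicate 2.

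OPRK1 had the highest median of the 6 genes, 5.91 FPKM. At D1 it was 9.47, 13.4, 0.362, 23.3 and 6.31 FPKM. At M2 it was 1.499, 22.1, 3.35, 14.8 and 3.11 FPKM. A low goat stood beside high ones at each stage. At M4 it was 2.37, 5.25, 0.518, 7.81 and 13.1 FPKM, and at M6 it was 1.86, 7.12, 0.576, 6.36 and 5.50 FPKM. The highest M6 goat was below 3 of the 5 D1 goats. The mean of the 5 goats was 10.6 FPKM at D1 (SD 8.56), 8.96 at M2 (SD 9.04), 5.80 at M4 (SD 4.91) and 4.28 at M6 (SD 2.89). No test of an order by age was run, and OPRK1 passed in none of the comparisons of stages below. The medians (9.47, 3.35, 5.25 and 5.50 FPKM) do not follow the order of the means.

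OPRM1 had the smallest SD within stages of the 6 genes on the log2(FPKM + 0.1) scale. It was 4.75, 2.47, 2.42, 5.49 and 1.77 FPKM at D1. It was 3.24, 2.06, 2.73, 7.0025 and 6.07 FPKM at M2. The medians of these stages, 2.47 and 3.24 FPKM, were close to each other against such a spread. At M4 it was 0.487, 14.6, 2.17, 2.24 and 2.01 FPKM, and at M6 it was 2.37, 4.17, 0.673, 5.05 and 1.93 FPKM. The highest and the lowest value of all 20 libraries both came from M4. They belong to the libraries with the most thalamic and the most cortical marker RNA, and the part of those markers was not tested.

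OPRL1 was between 1.69 and 4.66 FPKM at D1, with 4.66, 2.93, 3.62, 1.82 and 1.69 FPKM in the 5 goats. At M2 it was 3.06, 3.41, 2.83, 4.12 and 3.18 FPKM, the narrowest group of any gene and stage on the log scale shown in the plot of the 6 genes. At M4 it was 3.11, 6.68, 0.673, 2.32 and 3.27 FPKM. The spread at M6 was wide, with 1.24, 1.43, 0.0793, 6.78 and 4.05 FPKM. The lowest value of the series, in M6 replicate 3, came again from the library with the least neuronal marker RNA.

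OPRD1 was the lowest of the genes, with a median of 0.303 FPKM and 4 of 20 libraries above 1 FPKM. At D1 it was 0.112, 0.150, 0.201, 0.986 and 0.0329 FPKM. At M2 it was 3.78, 0, 0, 0.236 and 0.508 FPKM. All D1 goats were under 1 FPKM, whereas M2, M4 and M6 each had a goat well above that level. At M4 it was 2.21, 0.160, 3.69, 0.478 and 0 FPKM, and at M6 it was 0.671, 0.470, 2.69, 0.190 and 0.371 FPKM. The libraries above 1 FPKM were M2 replicate 1, M4 replicates 1 and 3 and M6 replicate 3. M6 replicate 3 and M2 replicate 1 were the libraries with the lowest neuronal sums, while M4 replicate 1 had the highest, 2562 FPKM. The first 2 of these were also low in mapping rate. The order of the medians over the 20 libraries was OPRK1 (5.91 FPKM), PENK (4.45), OPRL1 (3.08), OPRM1 (2.44), PNOC (1.63) and OPRD1 (0.303).

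To ask how the 4 receptor genes divide their total, each was expressed as a share of the summed receptor FPKM of its library. The median share over 20 libraries was 42.02% for OPRK1, 25.9% for OPRM1, 19.1% for OPRL1 and 3.09% for OPRD1. OPRK1 was the largest in 11 libraries, and OPRM1, OPRL1 and OPRD1 in 3 each. OPRK1 held the largest share in 4 of 5 D1 libraries, the exception being D1 replicate 3, where OPRL1 held 54.9% and OPRK1 5.49%. OPRD1 led in M2 replicate 1 (32.7%), M4 replicate 3 (52.4%) and M6 replicate 3 (66.9%). The mean share of OPRD1 was 1.58% ± 1.39 (SD, n = 5) at D1 and 17.1% ± 28.1 at M6. This was the smallest p among 24 exact permutation tests of shares between stages (p = 0.0397, two-sided), and after adjustment over the 24 exact tests it was 0.952. Without M6 replicate 3 the M6 mean was 4.66% ± 4.31 (n = 4). No share had an adjusted p under 0.05 in any pair of stages.

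**Figure D2:**
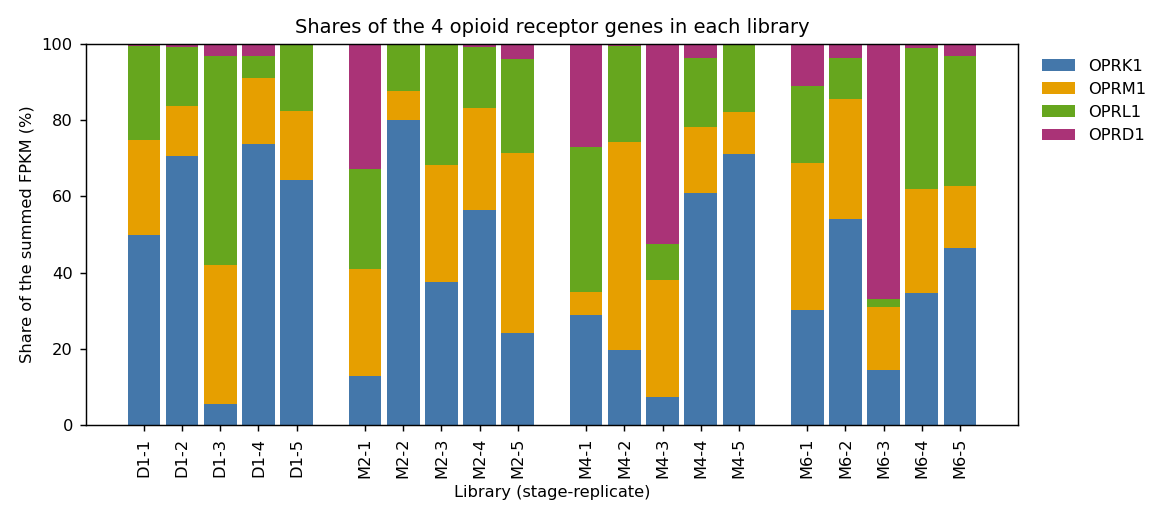
Share of each of the 4 receptor genes in their summed FPKM (%), with 1 bar per library, ordered by stage and replicate. OPRK1 leads in 11 of 20 libraries, and the OPRD1 share is above 30% only in M2 replicate 1, M4 replicate 3 and M6 replicate 3.

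Differences between stages were tested with limma on log2(FPKM + 0.1) over 16771 genes that had at least 0.1 FPKM in at least 5 libraries, and all 6 genes passed this filter. Genes were called where the Benjamini-Hochberg adjusted p was under 0.05 and the log2 fold change was 1 or more in either direction. None of the 6 genes met this in any comparison. Among all genes tested, 0% met it in M2 vs. D1, M4 vs. M2, M6 vs. M4 and M6 vs. M2, against 0.0537% in M4 vs. D1 and 0.00596% in M6 vs. D1. In the contrast of the mean of M2, M4 and M6 with D1 it was 0.0596%. The moderated F test of any difference among the 4 stages also called 0 of the 6, with 0.00596% of all genes called. At an unadjusted p under 0.05, limma gave 1 of the 6 in M4 vs. D1 and 1 in M6 vs. M4, both PENK, and 0 in the other 5 comparisons. The corresponding share of all genes was 8.71% in M4 vs. D1 and 6.87% in M6 vs. M4. The median log2 fold change of the 6 genes was -0.22 in M4 vs. D1, against -0.07 over all genes tested. In M6 vs. D1 it was -0.42 against -0.05, and in M2 vs. D1 it was 0.08 against -0.07. The median was -0.52 against 0.02 in M6 vs. M2 and -0.45 against -0.02 in M4 vs. M2. It was -0.15 against 0.04 in M6 vs. M4 and -0.18 against -0.07 in the later stages against D1. The ranges of the stages overlapped for all 6 genes in every comparison.

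PENK gave the largest differences. The log2 fold change was -3.25 in M4 vs. D1 (standard error 1.26, 95% interval -5.87 to -0.62), with a limma adjusted p of 0.483. In M6 vs. M4 it was 3.16 (95% interval 0.53 to 5.78, limma adjusted p = 0.700), and in M4 vs. M2 it was -2.52 (95% interval -5.14 to 0.11, limma adjusted p = 0.577). The exact permutation test of the mean log2 level gave p = 0.0714 for M4 vs. D1, 0.0556 for M6 vs. M4 and 0.111 for M4 vs. M2. After adjustment over the 36 exact tests of members and pairs of stages all 3 were 0.976. Without the 3 libraries of high striatal sum, a choice made after seeing the data, the M4 vs. D1 value was -2.22 (limma adjusted p = 0.627), since D1 replicate 4 was among them. M4 vs. D1 and M6 vs. M4 share the M4 libraries, and M4 replicate 2 and M4 replicate 4 had the lowest PENK of all.

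The other 5 genes had smaller differences. For each, the pair of stages with the smallest limma p is given here with its standard error and adjusted p. PNOC had a log2 fold change of -0.81 in M6 vs. M4 (0.93, adjusted p = 0.881), which was 0.12 without M6 replicate 3 and -0.04 without M4 replicate 2. OPRM1 had -0.68 in M6 vs. M2 (0.64, limma adjusted p = 0.808). OPRK1 had -0.94 in M6 vs. D1 (1.00, limma adjusted p = 0.834). OPRD1 had 1.24 in M6 vs. D1 (1.02, limma adjusted p = 0.784), and OPRL1 had -1.08 in M6 vs. M2 (0.70, limma adjusted p = 0.750). All of these values rested in part on M6 replicate 3, the library with the least neuronal marker RNA. Without it they were -0.26 for OPRM1, -0.38 for OPRK1, 0.74 for OPRD1 and -0.29 for OPRL1. OPRK1 was also -1.87 without D1 replicate 3 and -0.46 without D1 replicate 4. With the mapping rate as a covariate OPRD1 had 0.32 in M6 vs. D1, and the part of the mapping rate in its values was not tested further. The 95% intervals of a difference between a pair of stages reached 1.34 to either side for OPRM1, 1.45 for OPRL1, 1.93 for PNOC, 2.09 for OPRK1, 2.12 for OPRD1 and 2.62 for PENK on the log2 scale. In 24 of the 36 intervals a change of 1 on the log2 scale, the size of the threshold, lay inside the interval in both directions, so such changes were not resolved at this number of goats. In this bulk tissue a smaller number of neurons of a type cannot be told apart from less RNA per neuron.

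**Figure D3:**
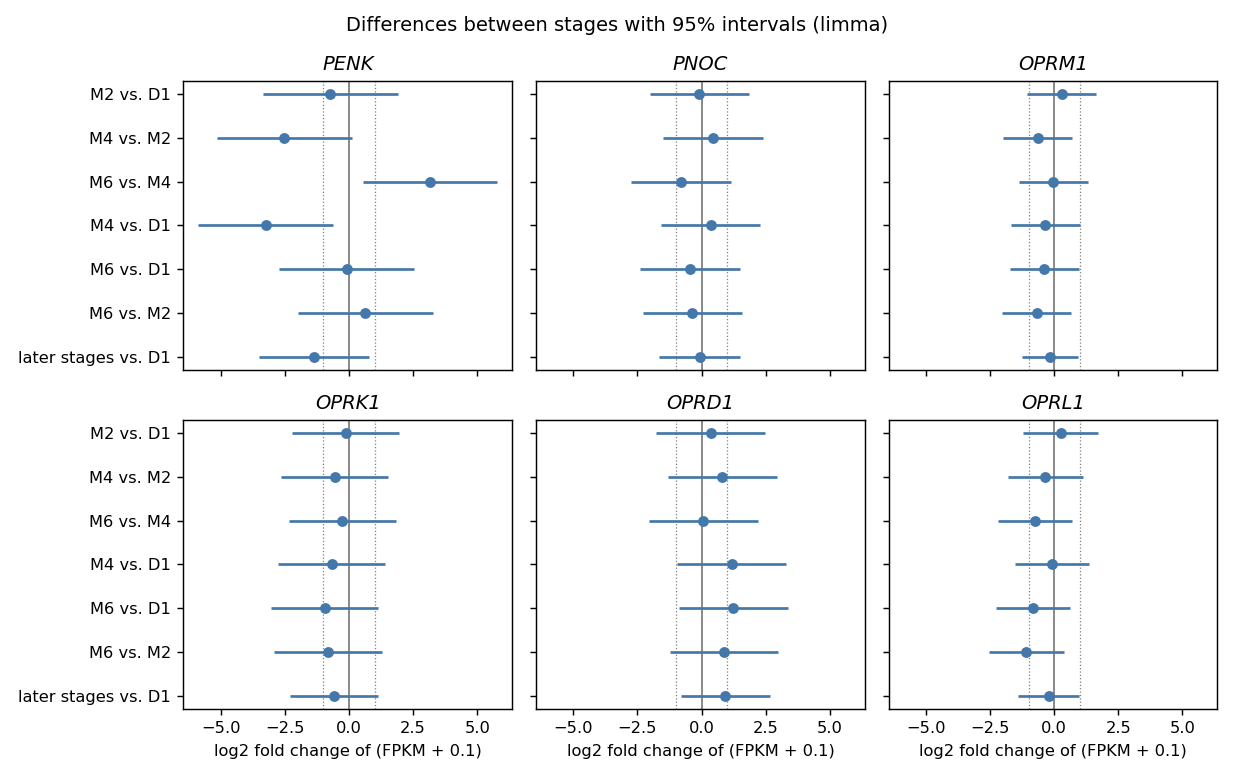
Log2 fold change of FPKM plus 0.1 (points) with the 95% interval from limma (lines) for the 6 genes in the 6 pairs of stages and in the later stages against D1, with dotted lines at a change of 1 in either direction. The intervals of PENK exclude 0 in M4 vs. D1 (-3.25) and M6 vs. M4 (3.16), and all other intervals include 0.

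The members had a wide spread among goats of 1 stage. The limma standard error of a pair of stages was 0.64 (OPRM1) to 1.26 (PENK) for the members. Among the related genes described below it ran from 0.18 (GNAI2) to 1.52 (RGS14), and most of them lay below OPRM1. Only RGS14 and PDYN (1.43) lay above PENK. The SD of log2(FPKM + 0.1) within stages was 2.23 for PENK, larger than that of 99.5% of the genes tested. It was 1.77 for OPRK1 (98.3% of genes smaller), 1.75 for OPRD1 (98.2%) and 1.62 for PNOC (97.1%). OPRL1 with 1.204 (89.1%) and OPRM1 with 1.11 (85.5%) were lower, against a median of 0.57 over all genes. Of the total variance, 30.4% lay between stages for PENK and 3.78% to 12.3% for the other 5, against a median of 18.2% over all genes.

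How the 6 genes moved together among goats of a stage was examined in all 15 pairs, after centring each gene within its stage. The nociceptin precursor and its receptor gave the strongest relation. PNOC and OPRL1 had a Pearson's r of 0.81 and a Spearman's rho of 0.78 over 20 libraries, with permutation p values of 4.3e-04 and 6.3e-04 and Benjamini-Hochberg adjusted values of 0.00645 and 0.00945. M6 replicate 3 had the lowest level of both genes and M4 replicate 2 the highest PNOC. These were also the 2 libraries farthest from the median of centred PNOC. With these 2 libraries left out, r was 0.63 where the stage means of all 20 libraries were kept. It was 0.51 where the remaining libraries were centred anew. Over the same 20 libraries OPRL1 had an r of 0.64 with the neuronal marker level and PNOC one of 0.55. With that level regressed out, a step added after seeing the data, the r of PNOC and OPRL1 was 0.71. The libraries share their tissue make-up and depth, and the part of these was not tested. Over the uncentred values, OPRL1 stood 18th among the 16770 other genes by its Spearman correlation with PNOC (0.75), and PNOC stood 109th by that with OPRL1.

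No other pair met an adjusted p under 0.05. PNOC and OPRM1 had an r of 0.65 (permutation p = 0.0148, adjusted 0.0742), which was 0.11 without M6 replicate 3 and M4 replicate 2, so this value rested on those 2 libraries. The r values of OPRD1 with the other receptors were negative, and none passed. OPRD1 had an r of -0.54 with OPRK1 (permutation p = 0.0213, adjusted 0.0800), -0.51 with OPRL1 (0.00720, adjusted 0.0540) and -0.24 with OPRM1 (0.431, adjusted 0.588), where rho was -0.02 and r was 0.06 without M6 replicate 3 and M4 replicate 2. PENK had no r above 0.33 with any of the others, and its r with OPRD1, the receptor for enkephalins, was 0.33 (permutation p = 0.188, adjusted 0.314). With OPRM1, which also binds enkephalins, it was 0.13 (permutation p = 0.616, adjusted 0.668), and 0.41 without M4 replicate 2.

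**Figure D4:**
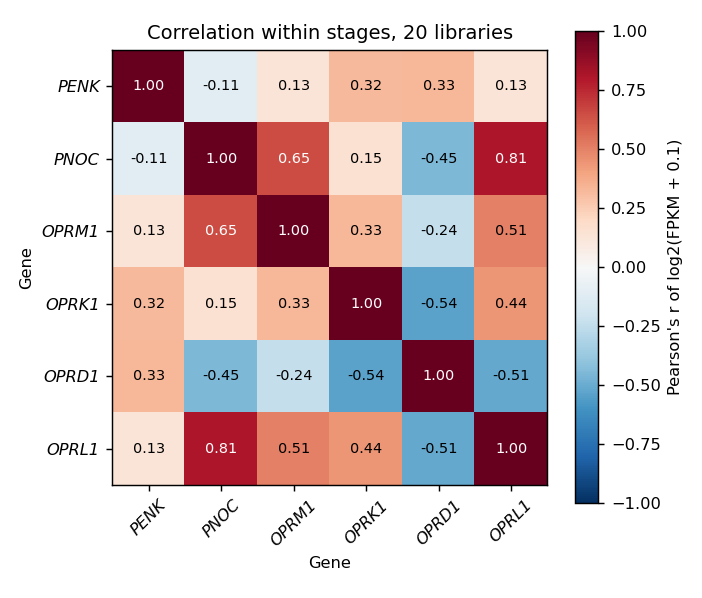
Pearson's r of log2(FPKM + 0.1) centred within stages over 20 libraries, for each pair of the 6 genes, with red for positive and blue for negative values. PNOC and OPRL1 have the highest value (0.81), and OPRD1 has negative values with PNOC and with the other 3 receptors.

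**Figure D5:**
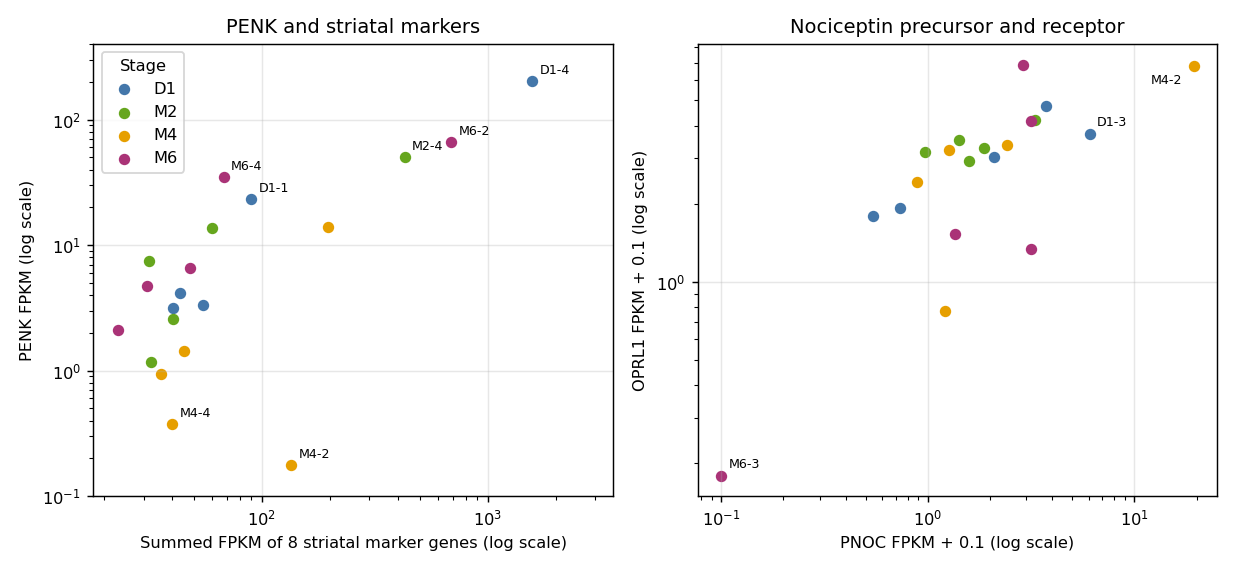
Left, PENK in FPKM against the summed FPKM of 8 striatal marker genes, and right, OPRL1 against PNOC in FPKM plus 0.1, with log axes, 1 point per library coloured by stage and some libraries named. The 3 libraries with a striatal sum of 429 or more have PENK from 50.5 to 202 FPKM, and M6 replicate 3 stands alone at the lower left of the right panel.

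The genes whose levels followed each member most closely over the 20 libraries were listed by Spearman's rho, as a description without a test. For PENK they were TCERG1L (0.90), ISLR2 (0.88) and GLP1R (0.87), the last being the receptor for glucagon-like peptide 1. For PNOC they were RELL2 (0.81), NRSN2 (0.81) and FAIM2 (0.80). OPRM1 was followed by FSTL4 (0.85), GRIK2 (0.81), a kainate receptor subunit gene, and SGIP1 (0.81). OPRK1 was followed by SLC14A1 (0.85), a urea transporter gene, SLC2A13 (0.85) and RNF166 (0.82). OPRD1 was followed by ARID1B (0.80), VTI1A (0.77) and ZNF292 (0.75). OPRL1 was followed by OGDHL (0.92), SEZ6L (0.92) and PSEN2 (0.90). The lists of the 6 genes had no gene in common. The 20 libraries differ in their marker sums, and the part of these in the likeness was not tested.

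PDYN, the prodynorphin gene whose products act on OPRK1, was at 128 FPKM in D1 replicate 4, 100 in M2 replicate 4, 77.8 in M6 replicate 4 and 67.7 in M6 replicate 2, which are also the 4 libraries with the highest PENK. M4 replicate 4 differed, with 52.7 FPKM of PDYN and 0.373 FPKM of PENK. POMC, the precursor of beta-endorphin, was low in all libraries, between 0.191 and 5.63 FPKM. By stage the mean of 5 goats was 2.17 FPKM at D1 (SD 1.301), 2.77 at M2 (SD 1.81), 0.827 at M4 (SD 0.589) and 1.37 at M6 (SD 0.912). In M4 vs. M2 the fitted log2 fold change of POMC was -1.66 (limma adjusted p = 0.499).

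Around the members, 37 genes of opioid precursor processing, peptide breakdown, receptor coupling and receptor regulation were listed, and 36 were tested. By limma with Benjamini-Hochberg adjustment none passed in any of the 7 comparisons. At an unadjusted p under 0.05, 1 was higher and 2 were lower in M2 vs. D1, 1 and 1 in M4 vs. M2, 0 and 3 in M6 vs. M4, 1 and 2 in M4 vs. D1, 1 and 1 in M6 vs. D1, 1 and 2 in the later stages against D1, and none in M6 vs. M2. The shares of all genes tested at that unadjusted p were 15.6%, 8.68%, 6.87%, 8.71%, 7.41%, 11.7% and 6.14% in the same order. In M2 vs. D1 the fitted log2 changes of the 36 genes had a median of -0.02, against -0.07 over all genes tested. The processing enzymes were carried by CPE, the carboxypeptidase that trims precursor fragments, with a mean of 305 FPKM, while the convertase genes PCSK1 and PCSK2 had 6.85 and 6.30 FPKM. CPE was 379 ± 96.4 FPKM at D1 and 258 ± 63.05 at M2 (SD, n = 5), a log2 fold change of -0.55 (limma adjusted p = 0.281). SCG5, the chaperone of PCSK2, had a mean of 132 FPKM.

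DPP3, which encodes a peptidase that cleaves enkephalins, had the smallest adjusted p of the list. Its mean over 5 goats was 9.59 FPKM at D1 (SD 1.15), 5.37 at M2 (SD 2.14), 5.59 at M4 (SD 1.82) and 6.33 at M6 (SD 1.35). No later goat reached the lowest D1 goat, as the highest later value was 7.61 FPKM and the lowest D1 value 8.28 FPKM. Of all genes tested, 0.125% had all 15 later libraries below all 5 D1 libraries and 0.0179% had them all above, and DPP3 was the only gene of the 36 to do so or the reverse, which was looked for after its values were seen. The fitted log2 change of DPP3 was -0.96 in M2 vs. D1 (standard error 0.31, limma adjusted p = 0.189) and -0.80 for the later stages against D1 (standard error 0.26, limma adjusted p = 0.241), so it did not pass the test across all genes. The other peptidase genes, MME, ANPEP and ECE2, had means of 4.81, 0.423 and 11.7 FPKM, with no unadjusted p under 0.05.

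Among the coupling genes, the inhibitory G protein subunit gene GNAI1 had the highest mean, 129 FPKM, followed by GNAO1 (20.5), GNAI2 (19.5), GNAI3 (17.3) and GNAZ (7.19). None of these 5 had an unadjusted p under 0.05 by limma. Of the potassium channel genes that opioid receptors open, KCNJ3 and KCNJ6 had means of 13.0 and 10.9 FPKM and KCNJ9 one of 1.18 FPKM. KCNJ9 was 1.92 ± 0.904 FPKM at M4 and 0.914 ± 0.458 at M6 (SD, n = 5), a log2 fold change of -0.99 in M6 vs. M4 (limma adjusted p = 0.700). Among the regulators, GRK5, a kinase of activated receptors, was 8.23 ± 2.79 FPKM at D1 and 14.8 ± 4.96 at M2 (SD, n = 5), a log2 fold change of 0.82 (limma adjusted p = 0.293).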

How the data were processed

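Expression was measured by strand-specific RNA sequencing of hypothalamus from 20 goats. After trimming with fastp, the authors used HISAT2 2.0.5 with the ARS1 genome and StringTie 1.3.3b for assembly, and from these made the deposited FPKM values. These hold no read counts, so the depth behind a value is unknown. FPKM summed to 260199 to 377479 per library, and 20610 of 21071 genes matched the annotation. FPKM depends on all other RNA of a library, so ratios and shares within libraries were also computed.

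The members, the gene lists and the tests were chosen with earlier results of these data known. Named genes are the members, the 3 genes most alike each of them by Spearman's rho and the listed pathway and marker genes. ACE and PRL were not analysed here, and 1 striatal marker was taken out of its list and is not reported here. Values were fitted as log2(FPKM + 0.1), which understates changes of low genes, with limma 3.58.1 in R 4.3.3 (4 stages, moderated variances with a trend, no block) and adjusted by Benjamini-Hochberg over 16771 genes. Shares, ratios and levels were compared with two-sided exact permutation tests over 252 assignments, and correlations with 100000 permutations within stages, in Python 3.11.15 with numpy 2.4.6, scipy 1.17.1 and pandas 2.3.3. Figures were drawn with matplotlib 3.10.9. Alternatives were other pseudocounts, filters and scalings, variances without a trend, library weights, a replicate block, the mapping rate as a covariate, a fit of only the stages compared and leaving out libraries. Alternatives based on striatal or neuronal markers, and correlations without M6 replicate 3 or M4 replicate 2, were added after seeing the data. The mapping rates entered only as a covariate and to name the 3 libraries with the lowest rates.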

Additional observations from a re-analysis of the deposited data

Results flagged for a closer look

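In 8 of the 24 groups of 1 gene and 1 stage, a single goat lay farther from the other 4 than Dixon's 95% critical value for 5 samples (0.71) allows. Chance flags about 1 in 20 groups, which is 1.2 of 24 groups. The FPKM values are skewed and the same libraries recur, so these groups are not independent. PENK had such a goat in D1 replicate 4 (201.7646 FPKM), M2 replicate 4 (50.4832 FPKM) and M4 replicate 1 (14.02 FPKM). The striatal sum of these libraries was 1575, 429 and 197 FPKM, against a median of 46.6 FPKM over all 20 libraries. M4 replicate 1 also had the highest cortical sum (131 FPKM) and the highest neuronal sum (2562 FPKM). M6 replicate 2, with a striatal sum of 690 FPKM, was not flagged. M4 replicate 2 had a striatal sum of 135 FPKM and the lowest PENK, 0.176 FPKM. PNOC and OPRM1 both had it in M4 replicate 2, at 19.3091 and 14.608 FPKM, the library with the highest thalamic sum (198 FPKM). OPRD1 had it in D1 replicate 4 (0.9858 FPKM), M2 replicate 1 (3.7847 FPKM) and M6 replicate 3 (2.6877 FPKM). The neuronal sums of the last 2 libraries were 160 and 66.9 FPKM, the lowest of the series. OPRK1 and OPRL1 had no such goat at any stage. What part the markers have in these values was not tested.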

How the results depend on the processing

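Across 36 settings of the limma fit, of which 20 left out 1 library each, 0 of the 6 genes passed in any comparison. The lowest limma adjusted p of all was 0.234, for PENK in M4 vs. D1 with library quality weights. Of all 16771 genes, these weights called 148 in M2 vs. D1, 65 in M4 vs. D1 and 95 in M6 vs. D1. They called 223 in the later stages against D1 and 0 in the other comparisons. The main fit called 0 to 10 genes per comparison, and no other setting called more than 34. A filter on a mean of at least 1 FPKM left out OPRD1. With a replicate block the PENK value in M4 vs. D1 was -3.25 (limma adjusted p = 0.432). Libraries of equal number in different stages had correlations between -0.25 and 0.43, over 0.1 in 7 of 30 pairs, so the numbers did not pair them. These differences changed sign in a setting, and none of them passed its test. PNOC in M6 vs. M4 (-0.81) was 0.12 without the 3 libraries of lowest mapping rate and 0.23 with the neuronal marker level as a covariate, and between -1.15 and 0.12 when single libraries were left out. OPRK1 in M6 vs. D1 (-0.94) was 0.20 with the mapping rate as a covariate. With single libraries left out, the OPRL1 share in M6 vs. D1 (-2.77 percentage points) ran from -7.22 to 5.06. The log2 ratio of PENK to PNOC ran from -1.52 to 0.72 in M2 vs. D1 (-0.63) and from -0.52 to 1.71 in M6 vs. D1 (0.36). The cause of these changes was not tested. The PENK value in M4 vs. D1 ran from -4.12 without M4 replicate 1 (limma adjusted p = 0.261) to -2.22 without D1 replicate 4 (limma adjusted p = 0.679).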
